A study of Mus musculus with 16 samples.

Results

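Snai1, Snai2, Zeb1, Zeb2, Prrx1 and Prrx2 encode 3 pairs of paralogous transcription factors of mesenchymal cells. They were chosen by name as members of these families and make up 6 of the 19707 gene symbols listed across the 3 deposited tables. All 6 were listed in each table and passed the filter on low values in each. RNA was measured in cardiac fibroblasts sorted by flow cytometry from mouse hearts, in 16 libraries of 6 groups, to ask what loss or gain of the transcription factor Tcf21 does to these cells with and without a fibrotic stimulus.

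The groups were as follows. Deleted hearts without injury (Tcf21-MerCreMer:Tcf21-fl, tamoxifen, 3 libraries) were compared with their controls (Tcf21-MerCreMer, tamoxifen, 3 libraries), both taken 2 weeks after tamoxifen. Deleted hearts given angiotensin II and phenylephrine by infusion for 1 week after tamoxifen (Tcf21-MerCreMer:Tcf21-fl, 2 libraries) were compared with infused controls (Tcf21-MerCreMer, 3 libraries). Overexpressing hearts given tamoxifen and the same infusion (Pdgfra-creERT:Col1a1-TCF21, 2 libraries) were compared with infused controls (Pdgfra-creERT, 3 libraries). All mice were 8 to 12 weeks old, all received tamoxifen, and all groups, controls included, carried an inducible Cre and a Rosa26 EGFP reporter that Cre switches on and that served for sorting. The reporter therefore marks cells in which the Tcf21 or Pdgfra driver was active when tamoxifen was given, and the drivers differ between the loss and gain arms. Nothing in the labels ties the libraries of a group to different animals, and the p-values below cover only the spread seen among these libraries, which may be technical. In bulk RNA of this kind, fewer cells of a type and less RNA per cell cannot be told apart.

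Snai1 (Snail) and Snai2 (Slug) are zinc finger repressors that bind E-box DNA, and they are known for lowering epithelial cadherin when epithelial cells become mesenchymal in development. Zeb1 and Zeb2 carry zinc finger clusters on both sides of a homeodomain, bind similar E-boxes and recruit co-repressors such as CtBP. Prrx1 and Prrx2 are paired-related homeodomain proteins of limb, craniofacial and heart mesenchyme, and Prrx1 is a widely used marker of fibroblasts and their progenitors.

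In the GENCODE vM21 annotation of GRCm38, Snai1 lies at chr2:167538195-167542814 and Prrx2 at chr2:30834972-30881251, both on the plus strand, and Zeb2 at chr2:44983632-45117395 on the minus strand. Snai2 lies at chr16:14705852-14709385 on the plus strand and Prrx1 at chr1:163245119-163313710 on the minus strand. The RefSeq promoter table (GRCm38.p6, 250 bases before to 50 after a start site) held 4 of the 6 members. The promoters of Snai1 and Prrx2 are shown for these reasons. Snai1 alone among the members with an entry held an E-box, and it rose with Tcf21 overexpression. Prrx2 had fewer normalized counts, not divided by length, than its partner in the pair whose balance differed most between tables. Both promoters read along the plus strand, at chr2:167537945-167538244 for Snai1 and at chr2:30845117-30845416 for Prrx2. The Prrx2 start site used by RefSeq lies inside the GENCODE gene. Capitals mark an E-box, read here as CACCTG and on the opposite strand as CAGGTG.

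Snai1: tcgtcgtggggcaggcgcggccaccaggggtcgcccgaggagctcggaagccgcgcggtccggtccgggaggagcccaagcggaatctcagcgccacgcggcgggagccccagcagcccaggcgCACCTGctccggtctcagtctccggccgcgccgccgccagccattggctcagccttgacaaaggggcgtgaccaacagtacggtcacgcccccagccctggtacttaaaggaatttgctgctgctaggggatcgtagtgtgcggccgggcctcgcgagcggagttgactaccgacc
Prrx2: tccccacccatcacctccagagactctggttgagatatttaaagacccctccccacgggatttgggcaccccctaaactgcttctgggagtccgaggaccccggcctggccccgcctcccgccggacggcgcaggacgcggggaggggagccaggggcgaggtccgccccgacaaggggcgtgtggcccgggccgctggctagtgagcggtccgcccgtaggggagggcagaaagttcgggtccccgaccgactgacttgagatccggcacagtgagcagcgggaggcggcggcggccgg

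The Snai1 window held 1 such match, beginning 126 bases before the start site. This E-box, searched on both strands, occurred in none of the windows of Prrx1, Prrx2 or any of the 4 Zeb2 entries, and CAGCTG occurred in none of the windows of these members. Of the 32851 promoters of the same length in the table, 20.2% held CAGGTG on either strand and 16.3% held CAGCTG, a different E-box. A match describes letters and is not a measured site.

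Fibroblast markers were high in all groups. The 10 fibroblast genes of the marker list (such as Col1a1, Dcn and Pdgfra) were all listed and none was at 0, and they made up 7.99% to 12.2% of each library's total. In the uninjured controls most of that share was 1 gene of the list, Gsn. It averaged 2786000 normalized counts there, against 712490 for Dcn, 98210 for Col1a1 and 53220 for Pdgfra. Deposited normalized values summed to 27814940 to 40970391 per library, and no column was a copy of another (Pearson's r of log2 values 0.945 to 0.984 within tables). The targeted gene, Tcf21, matched the labels in all 3 comparisons. Tcf21 had 1244, 1254 and 1718 normalized counts in uninjured deleted libraries, against 7825, 8081 and 7507 in their controls, a log2 difference of -2.49 (adjusted p = 4.22e-05). In the infused hearts, Tcf21 had 258 and 185 normalized counts in deleted libraries, against 2814, 1802 and 1510 in controls. Its infused difference was -3.17 (adjusted p = 0.00494), and it missed the threshold without infused deleted library 1 (adjusted p = 0.0519) or 2 (adjusted p = 0.0792). Tcf21 had 14820 and 13502 normalized counts in overexpressing libraries, against 6058, 5145 and 6235 in their controls, a difference of 1.29 (adjusted p = 0.00446), and reads from the transgene and the mouse gene cannot be told apart here.

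The levels of the members in the control libraries, per kilobase of transcript, put Snai2 above Snai1, Prrx1 and Prrx2, and Zeb1 above Zeb2, in all 3 control groups. Those orders held whether a gene's length was taken as the median of its coding transcripts or as the longest. The order of the Zeb and Snai2 means depended on that choice in the infused controls but not in the uninjured ones. With the median length, the 3 uninjured controls averaged 6798 normalized counts per kilobase for Zeb1, 4145 for Zeb2 and 745 for Snai2. With the longest transcript they averaged 1055 for Zeb1 and 800.5 for Zeb2, where the Snai2 mean was again 745. In the infused Tcf21-MerCreMer controls, the mean of Snai2 (775) lay below those of both Zeb genes with the median length (4198 for Zeb1 and 2027 for Zeb2), and above both with the longest (651 and 391). In the infused Pdgfra-creERT controls, the mean of Snai2 (934) likewise lay below those of Zeb1 (5661) and Zeb2 (2974) with the median length, and above them with the longest (878 and 574). The median coding transcript of Zeb1 is far shorter than its longest, which lowers the divisor and raises the level per kilobase.

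With the median length, the uninjured controls ranked Prrx1 (425 per kilobase), Snai1 (344) and Prrx2 (218) below Snai2, and no 2 neighbours in that order overlapped between libraries. In the infused Tcf21-MerCreMer controls Prrx2 averaged 395, Prrx1 304 and Snai1 288 normalized counts per kilobase, and there only Prrx1 and Snai1 overlapped. In the infused Pdgfra-creERT controls Prrx2 averaged 467, Prrx1 333 and Snai1 297. Prrx2 was thus lowest of the 6 in the uninjured controls and above both Prrx1 and Snai1 in the infused controls. This was so with either transcript length, as a ranking within each table. The order of Prrx1 and Snai1 did depend on the length. With the longest transcript Snai1 lay above Prrx1 in the uninjured controls (344 against 325). It also did in the infused Tcf21-MerCreMer (288 against 233) and infused Pdgfra-creERT controls (297 against 254).

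**Figure D1:**
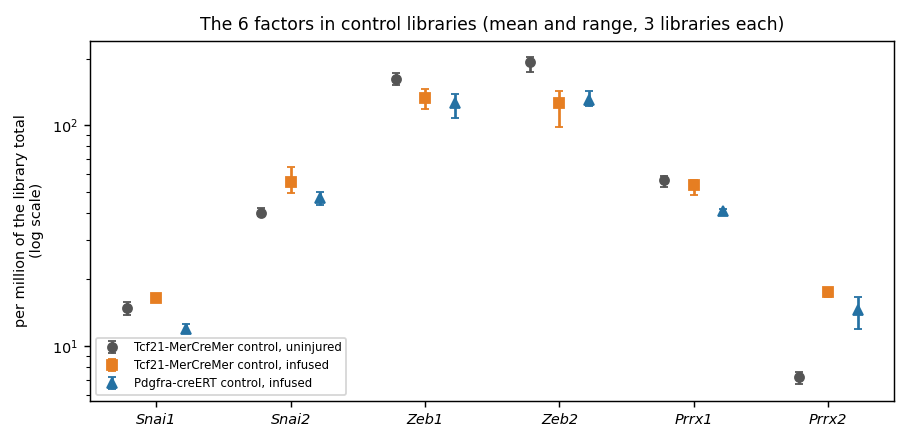
Values of the 6 members per 1000000 normalized counts of the library total (log axis, not divided by length), as mean and range over 3 control libraries each. The groups are the uninjured Tcf21-MerCreMer, infused Tcf21-MerCreMer and infused Pdgfra-creERT controls. Prrx2 averaged 7.24 in the uninjured controls and 17.5 and 14.5 in the infused controls, whose tables were normalized separately.

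Prrx2 also took a larger part of its pair in the infused tables. The log2 ratio of Prrx2 to Prrx1 within a library was taken on normalized counts not divided by length. It averaged -1.61 in the infused Tcf21-MerCreMer controls and -1.51 in the infused Pdgfra-creERT controls, against -2.95 in the uninjured controls. Scaled to 1000000 normalized counts per library, Prrx2 averaged 17.5 and 14.5 in those infused controls, against 7.24 in the uninjured ones. On the same scale Prrx1 averaged 53.4 and 41.0 in the infused controls against 56.1 in the uninjured ones. Prrx2 thus differed more between these tables than Prrx1 did. Zeb1 averaged 133 and 126 in the infused controls against 162 in the uninjured ones, and Zeb2 averaged 126 and 130 in the infused controls against 193 in the uninjured ones. Both Zeb genes thus had lower values in the infused tables. Snai2 averaged 55.1 and 46.7 in the infused controls against 39.8 in the uninjured ones, and Snai1 averaged 16.4 and 11.9 in the infused controls against 14.8 in the uninjured ones. These tables were made separately, and infusion, table and time after tamoxifen cannot be told apart, so no test was made across them.

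In uninjured hearts with loss of Tcf21, Zeb1 fell and was the only member past the threshold. Zeb1 (chr18:5591860-5775467, plus strand) had 4865, 4343 and 4879 normalized counts in the deleted libraries, against 5775, 6089 and 6491 in the controls. Every deleted library lay below every control, and the group means were 4696 ± 305 and 6118 ± 359 (SD, n = 3 each). Zeb1 fell by 0.38 on the log2 scale (SE 0.0823, 95% interval -0.57 to -0.20, limma adjusted p = 0.0438), a level 1.30-fold lower. The members called were thus 1 of 6, beside 3.58% of all 15544 genes tested, 3 of 6 members had an unadjusted p below 0.05, beside 21.2%, and 3 of 6 had groups that did not overlap, beside 27.7%. Zeb1 stayed past the threshold without deleted library 1 (adjusted p = 0.0376), and missed it without deleted library 2 (0.0905) or 3 (0.0590) and without control 1 (0.0877), 2 (0.181) or 3 (0.179), as adjusted p-values.

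Zeb2, the paralog of Zeb1, did not separate. It had 5623, 6100 and 7642 normalized counts in the uninjured deleted libraries, against 6585, 7674 and 7652 in the controls. The third deleted library lay within the control range and the other deleted libraries below it, and the log2 difference of -0.19 had an adjusted p of 0.407. Some antisense or opposite-strand genes overlap these loci: Zeb2os within Zeb2 was listed at 26.1 to 82.0 normalized counts and Gm10125 opposite Zeb1 at 17.9 to 66.5, which is small beside the members. Reads cannot be assigned to a strand from these tables.

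Snai1 was lower and Prrx2 higher in every uninjured deleted library, without passing the adjusted threshold. Snai1 had 441, 369 and 424 normalized counts in deleted libraries, against 600.2, 523 and 552 in controls. The groups did not overlap, and the log2 difference was -0.44 (SE 0.139, 95% interval -0.76 to -0.13, adjusted p = 0.115). Prrx2 had 389, 373 and 413 normalized counts in deleted libraries, against 253, 279.7 and 288 in controls. These groups did not overlap either, and the log2 difference was 0.52 (SE 0.151, 95% interval 0.17 to 0.86, adjusted p = 0.0956), a level 1.43-fold higher.

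The partners of both genes overlapped between groups, and the differences within pairs did not pass a test. Snai2 had 1522, 2145 and 1876 normalized counts in uninjured deleted libraries, against 1598, 1461 and 1455 in controls. Its first deleted library fell within the control range, and the log2 difference was 0.28 (95% interval -0.0096 to 0.58, adjusted p = 0.249). Prrx1 had 2377, 1974 and 2425 normalized counts in deleted libraries, against 1986, 2218 and 2156 in controls, with a log2 difference of 0.087 (adjusted p = 0.673) and groups that overlapped. The median log2 difference over the 6 members was -0.050, beside -0.012 over all genes tested.

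**Figure D2:**
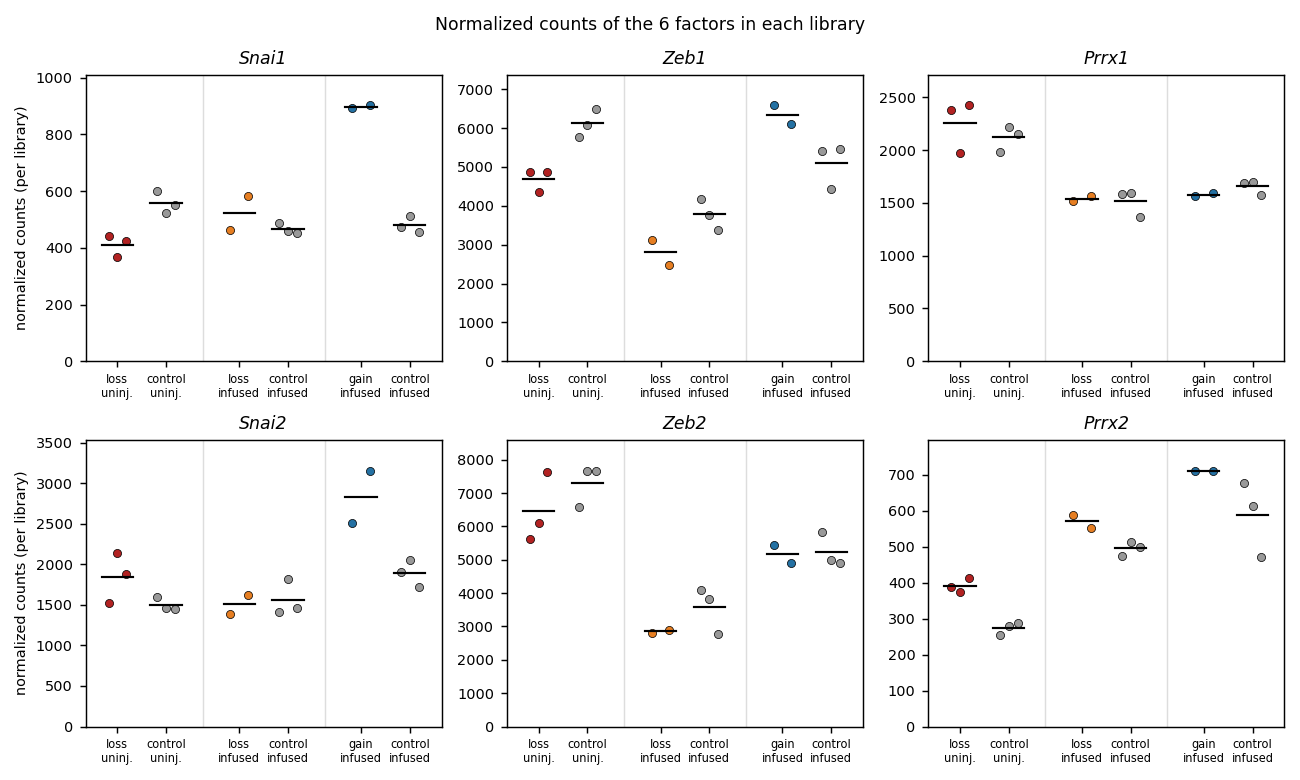
Normalized counts of the 6 members in each of the 16 libraries, by group, with group means; in each pair the Tcf21-deleted or overexpressing libraries stand left of their controls. Zeb1 was lower in all 3 uninjured deleted libraries (4343 to 4879) than in the controls (5775 to 6491), and Snai1 was higher in both overexpressing libraries (893 and 903) than in their controls (457 to 512).

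Within-library ratios of paralogs did not overlap between uninjured groups for Snai and Prrx, in a comparison in which 27.7% of single genes did not overlap either. The ratio of Snai2 to Snai1 was 3.45, 5.81 and 4.41 in uninjured deleted libraries, against 2.66, 2.79 and 2.63 in controls. The log2 ratio averaged 2.16 ± 0.376 in deleted and 1.43 ± 0.0447 in control libraries (SD, n = 3 each), a difference of 0.73 with no overlap (exact two-sided permutation test, p = 0.1, adjusted over 9 ratio tests to 0.3). The log2 ratio of Prrx2 to Prrx1 averaged -2.52 in deleted and -2.95 in control libraries, again with no overlap (exact permutation p = 0.1, adjusted 0.3). For Zeb2 to Zeb1 the groups overlapped (0.45 in deleted and 0.25 in control libraries, exact permutation p = 0.3). No design here can give an exact p below 0.1, so none of these tests could pass.

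Loss of Tcf21 in infused hearts called no member with limma (0 of 6, beside 0.912% of 14799 genes tested), and 1 member, Zeb1, had an unadjusted p below 0.05 (16.1% of all genes did). Zeb1 had 3132 and 2475 normalized counts in infused deleted libraries, against 4179, 3771 and 3384 in controls. Both deleted libraries lay below all controls, and the log2 difference was -0.44 (SE 0.138, 95% interval -0.76 to -0.11, limma adjusted p = 0.217). Members whose groups did not overlap numbered 2 of 6, beside 35% of all genes. The other was Prrx2, with 588 and 552 normalized counts in deleted libraries against 475, 514 and 499.9 in controls (log2 difference 0.20, adjusted p = 0.426).

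The remaining members overlapped between infused groups. Snai1 had 463 and 583 normalized counts in infused deleted libraries, against 489, 458 and 453 in controls (log2 difference 0.16, adjusted p = 0.615). Snai2 had 1392 and 1618 normalized counts in deleted libraries, against 1414, 1823 and 1460 in controls (log2 difference -0.051, adjusted p = 0.883). Neither Snail gene separated, and in each 1 deleted library lay inside the control range. Zeb2 had 2817 and 2900 normalized counts in deleted libraries, against 4099, 3834 and 2783 in controls, so that the third control lay as low as the deleted libraries (log2 difference -0.30, adjusted p = 0.423). Prrx1 had 1518 and 1561 normalized counts in deleted libraries, against 1586, 1597 and 1371 in controls (log2 difference 0.024, adjusted p = 0.928). The median log2 difference over the members was -0.014, beside 0.00017 over all genes.

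Whether loss acted differently in infused and uninjured hearts was tested as a difference of the log2 differences, over the 4 loss groups. No member passed (0 of 6, beside 0.149% of 14130 genes), and 1, Snai1, had an unadjusted p below 0.05 (11.6% of all genes did). For Snai1 the infused loss effect exceeded the uninjured one by 0.60 (SE 0.190, 95% interval 0.18 to 1.02, adjusted p = 0.321). For Zeb1 the difference was -0.053 (adjusted p = 0.928), and for Prrx2 it was -0.32 (adjusted p = 0.502). The differences for Snai2, Zeb2 and Prrx1 were -0.33, -0.11 and -0.063 (adjusted p = 0.554, 0.883 and 0.906). A p that misses the threshold does not show that the effects were alike.

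In infused hearts with gain of Tcf21, Snai1 rose and was the only member past the threshold. Snai1 had 893 and 903 normalized counts in overexpressing libraries, against 475, 512 and 457 in controls. Both overexpressing libraries lay far above all controls, and the means were 898 ± 6.72 (SD, n = 2) and 481 ± 28.1 (SD, n = 3). Snai1 rose by 0.90 on the log2 scale (SE 0.116, 95% interval 0.63 to 1.17, limma adjusted p = 0.0115), a level 1.87-fold higher. The members called were 1 of 6, beside 4.14% of 15369 genes tested, and 3 of 6 members had an unadjusted p below 0.05, beside 20.4% of all genes. Groups did not overlap for 4 of 6 members, all 4 higher in the overexpressing libraries, beside 39.3% of all genes in either direction. Snai1 missed the threshold without overexpressing library 1 (adjusted p = 0.0721) or 2 (adjusted p = 0.0837), each of which leaves a lone overexpressing library assumed to vary like the others, and kept it without any 1 control.

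Snai2, Zeb1 and Prrx2 were higher in both overexpressing libraries without passing. Snai2 had 2510 and 3156 normalized counts in overexpressing libraries, against 1900.2, 2047 and 1717 in controls (log2 difference 0.58, SE 0.127, 95% interval 0.28 to 0.88, adjusted p = 0.0536). Zeb1 had 6586 and 6107 normalized counts in overexpressing libraries, against 5406, 4427 and 5453 in controls (log2 difference 0.32, 95% interval 0.056 to 0.59, adjusted p = 0.173). Prrx2 had 711 and 712 normalized counts in overexpressing libraries, against 676, 613 and 471 in controls (log2 difference 0.29, adjusted p = 0.381). In each of the 3 genes no library of 1 group entered the range of the other, and the spread of Prrx2 was wide among its controls (587 ± 105, SD, n = 3).

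Zeb2 and Prrx1 were close between groups. Zeb2 had 5448 and 4899 normalized counts in overexpressing libraries, against 5837, 4989 and 4894 in controls (log2 difference -0.016, adjusted p = 0.957). Prrx1 had 1564 and 1593 normalized counts in overexpressing libraries, against 1693, 1701 and 1579 in controls (log2 difference -0.070, adjusted p = 0.718). Both overlapped. The median log2 difference over the members was 0.31, beside 0.0066 over all genes tested.

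**Figure D3:**
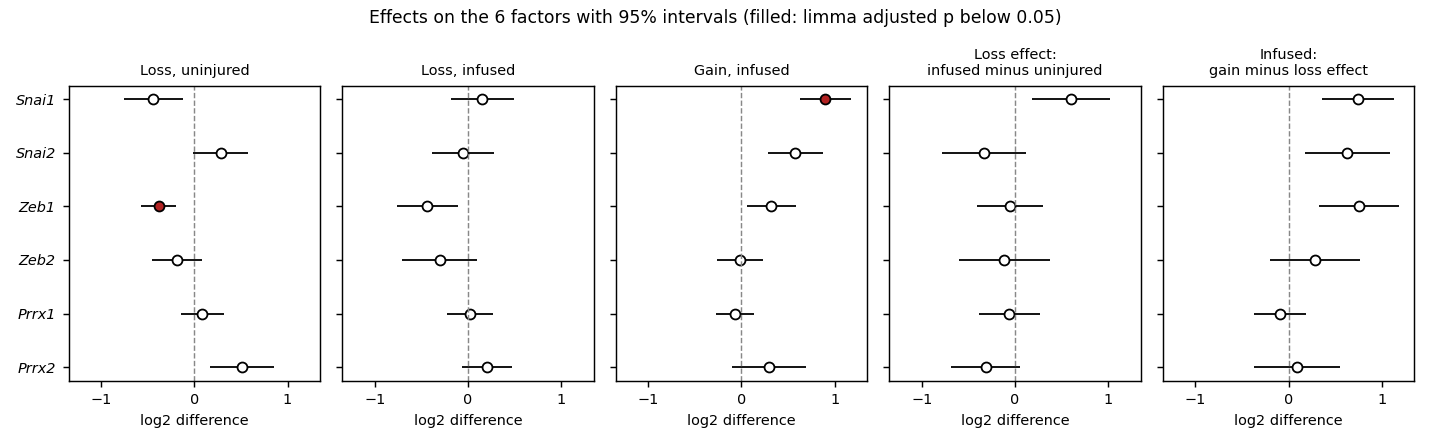
Log2 differences of the 6 members with 95% intervals from limma, for uninjured loss, infused loss and infused gain (loss or gain minus control). The 2 contrasts of effects (infused minus uninjured loss, and gain minus loss) are shown beside them. The interval of Zeb1 lay below 0 in both loss comparisons and above 0 in gain, and only uninjured Zeb1 (adjusted p = 0.0438) and gain Snai1 (adjusted p = 0.0115) passed the threshold over all genes.

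Ratios of paralogs did not overlap between groups for any of the 3 pairs in the gain comparison, in which 39.3% of single genes did not overlap either, and no ratio passed after adjustment. The log2 ratio of Snai2 to Snai1 averaged 1.65 in overexpressing and 1.97 in control libraries, a difference of -0.32 (exact permutation p = 0.1, adjusted 0.3). Zeb2 to Zeb1 averaged -0.30 in overexpressing and 0.042 in control libraries, and Prrx2 to Prrx1 averaged -1.15 in overexpressing and -1.51 in control libraries (exact permutation p = 0.2 each, adjusted 0.36). In infused loss all 3 ratios overlapped between groups, with Snai2 to Snai1 at 1.53 in deleted and 1.74 in control libraries (exact permutation p = 0.4).

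**Figure D4:**
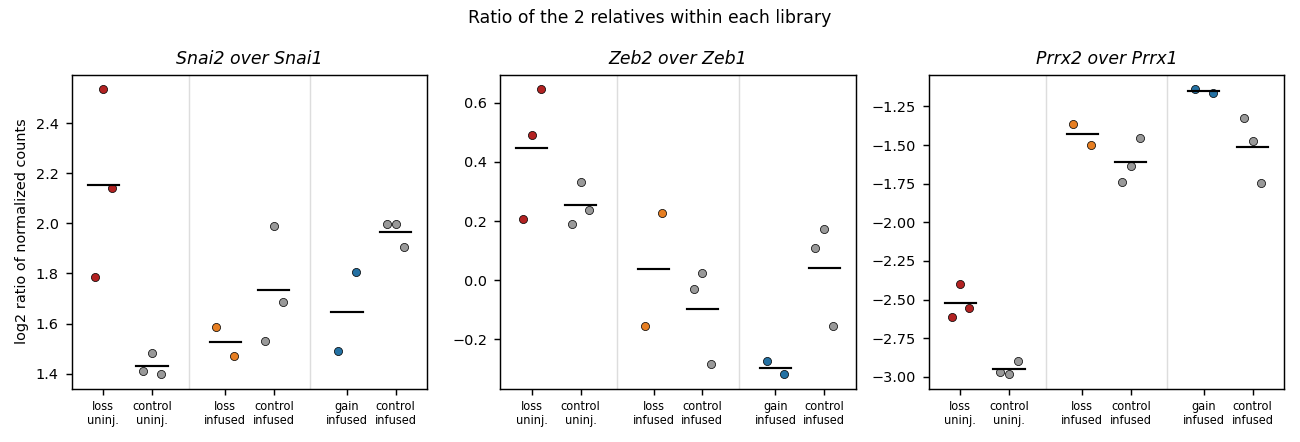
Log2 ratios of Snai2 to Snai1, Zeb2 to Zeb1 and Prrx2 to Prrx1 within each of the 16 libraries, by group, with group means. Prrx2 to Prrx1 averaged -2.52 in the uninjured deleted and -2.95 in the uninjured control libraries, and lay between -1.74 and -1.14 in the infused tables.

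Gain minus loss in infused hearts, as a contrast over the 4 infused groups, called 0 of 6 members with limma beside 2.93% of 14319 genes, and 3 members had an unadjusted p below 0.05 (16.3% of all genes did). The contrast was 0.74 for Snai1 (SE 0.172, 95% interval 0.36 to 1.13, adjusted p = 0.0532) and 0.76 for Zeb1 (SE 0.191, 95% interval 0.33 to 1.18, adjusted p = 0.0715). For Snai2 it was 0.63 (adjusted p = 0.152). It was 0.29 for Zeb2, 0.093 for Prrx2 and -0.093 for Prrx1 (adjusted p = 0.554, 0.860 and 0.758).

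Patterns over all 16 libraries were compared after subtracting, on the log2 scale, the mean of the control libraries of the same table. Zeb1 was most like Atp2a3 (r = 0.947), Smtnl2 (r = 0.945) and Tcf21 (r = 0.930), Tcf21 being the deleted or overexpressed gene itself. Snai1 was most like Smad1, a mediator of bone morphogenetic protein signals (r = 0.931), Syn2 (r = 0.929) and Zcchc9 (r = 0.927). Snai2 was most like Cops5 (r = 0.888), Tcf24 (r = 0.880) and Gpr153 (r = 0.879). Zeb2 was most like Qtrt2 (r = 0.904), Cul9 (r = 0.885) and Champ1 (r = 0.882).

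Prrx2 was most like Rab15 (r = 0.909), Snap23 (r = 0.895) and Tmem176a (r = 0.890), and Prrx1 most like Ppp2r3c (r = 0.785), Spata7 (r = 0.784) and Zfp780b (r = 0.778). Among the members, r was 0.63 for Zeb1 with Zeb2, 0.60 for Snai1 with Zeb1, 0.53 for Snai2 with Prrx2, 0.41 for Prrx1 with Prrx2 and 0.36 for Snai1 with Snai2. The lowest values were -0.37 for Prrx2 with Zeb1, -0.34 for Prrx1 with Snai1 and -0.25 for Prrx1 with Zeb1, and the other 7 of the 15 pairs lay between -0.20 and 0.28. These values of Pearson's r describe 16 libraries, which share tables, groups and normalization, and the best of 11210 genes is high by selection.

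Other genes were followed in 8 lists. These were other mesenchymal factors, epithelial genes, mesenchymal genes, co-repressors and partners, stability regulators, inducers, paired-homeodomain genes with partners, and immediate early genes. The lists held 215 genes. In uninjured loss, 172 of them were tested, 1 rose and 4 fell (2.91%, beside 3.58% of all genes). Among 24 other mesenchymal factors tested, Meox1, a homeodomain factor of somite and fibroblast lineages, was 1.54-fold higher (8099 ± 1138 normalized counts in deleted and 5258 ± 459 in control libraries, SD, n = 3 each, adjusted p = 0.0284). Sox9, a factor of cartilage and activated fibroblasts, was at 3697 ± 202 normalized counts in deleted and 5132 ± 392 in control libraries (adjusted p = 0.0276), and Osr1, a zinc finger factor of fibroblast progenitors, at 1976 ± 180 in deleted and 2823 ± 365 in control libraries (adjusted p = 0.0494), both lower on deletion.

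Among 25 inducers of these factors, the receptor Notch1 fell (744 ± 124 normalized counts in deleted and 1202 ± 99.5 in control libraries, adjusted p = 0.0390), and among 23 immediate early genes Nr4a1, a nuclear receptor, fell (17950 ± 2476 in deleted and 32648 ± 5898 in control libraries, adjusted p = 0.0227). The 12 epithelial, 19 mesenchymal, 32 co-repressor, 27 stability-regulator and 10 paired-homeodomain genes tested held no call with limma. In that order, 1, 9, 9, 7 and 0 of them had an unadjusted p below 0.05 (8.33%, 47.4%, 28.1%, 25.9% and 0%, beside 21.2% of all genes). All 5 calls missed the threshold without control 1 (adjusted p 0.0531 to 0.128) and without control 3 (0.0814 to 0.153). Up to 4 of them missed it without control 2 (0.126 to 0.201), deleted library 2 (0.0559 to 0.104) or deleted library 3 (0.0534 to 0.0621).

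In infused loss, 173 list genes were tested and none passed in limma, while 36 had an unadjusted p below 0.05 (20.8%, beside 16.1% of all genes tested), 15 of them immediate early genes. The smallest adjusted p among other mesenchymal factors was that of Twist1, a basic helix-loop-helix factor of mesenchyme, with 697 ± 46.6 normalized counts in deleted (SD, n = 2) and 448 ± 32.3 in control libraries (SD, n = 3, adjusted p = 0.0825). Immediate early genes lay low, with a median log2 difference of -0.47 over 24 genes, beside 0.00017 over all genes. Nr4a1 had 7002 ± 1650 normalized counts in deleted and 12746 ± 630 in control libraries (adjusted p = 0.0643).

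In the gain comparison, 178 list genes were tested, 10 rose and 13 fell (12.9%, beside 4.14% of all genes). Of 24 immediate early genes, 1 rose and 6 fell, with a median log2 difference of -0.77. Egr3, a zinc finger factor, rose to 1709 ± 87.1 normalized counts in overexpressing libraries, against 656 ± 99.8 in controls (adjusted p = 0.00686). Btg2, an antiproliferative gene, fell to 11302 ± 1509 in overexpressing libraries, against 27818 ± 4680 in controls (adjusted p = 0.0103), and Zfp36, which destabilises messenger RNA, to 22142 ± 2005 in overexpressing libraries against 53697 ± 14018 in controls (adjusted p = 0.0240). Klf2, a zinc finger factor of vessels, fell to 12535 ± 2164 in overexpressing libraries against 23219 ± 2905 in controls (adjusted p = 0.0221).

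Of 26 inducers tested, 1 rose and 6 fell in the gain comparison. Tgfb3, a ligand of the transforming growth factor beta family, fell to 23299 ± 607 normalized counts in overexpressing libraries, against 39285 ± 4773 in controls (adjusted p = 0.0242), and the Notch ligand Jag1 to 1221 ± 65.7 in overexpressing libraries against 2282 ± 329 in controls (adjusted p = 0.0167). The growth factor receptor Egfr fell to 6625 ± 293 in overexpressing libraries against 10019 ± 732 in controls (adjusted p = 0.0196), and the ligand Pdgfa to 151 ± 30.6 in overexpressing libraries against 348 ± 41.0 in controls (adjusted p = 0.0235). These lists contain signals that act on the 6 factors in other settings, and their part in the member values was not tested.

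Among 28 regulators of Snail and Zeb protein stability, 3 rose in the gain comparison. Fbxl14, a ubiquitin ligase subunit that targets Snail proteins, rose to 1103 ± 92.9 normalized counts in overexpressing libraries, against 552 ± 113 in controls (adjusted p = 0.0318). Pak1, a kinase that phosphorylates Snail, rose to 1761 ± 166 in overexpressing libraries against 1065 ± 97.4 in controls (adjusted p = 0.0205), and the ubiquitin ligase subunit Fbxw7 to 986 ± 77.5 in overexpressing libraries against 654 ± 48.5 in controls (adjusted p = 0.0433). Of 32 co-repressors and partners 2 rose, the DNA methyltransferase Dnmt1 (adjusted p = 0.0242) and the chromatin remodelling subunit Mta1 (1369 ± 408 normalized counts in overexpressing libraries against 282 ± 133 in controls, adjusted p = 0.0299).

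Srf, the serum response factor and a partner of paired homeodomain proteins, rose to 1019 ± 0.113 normalized counts in overexpressing libraries, against 691 ± 28.6 in controls (adjusted p = 0.0315). Of the 9 genes tested in its list, Srf was the only 1 above control, and 8 lay below. The median log2 difference of that list was -0.086. The epithelial list, whose genes Snail and Zeb proteins lower in epithelial cells, held 13 tested genes, and Jup, the plakoglobin gene, rose to 26163 ± 83.9 in overexpressing libraries against 14965 ± 1357 in controls (adjusted p = 0.0115). Of these 13 epithelial genes, 5 lay above and 8 below control, with a median log2 difference of -0.11. Of 26 other mesenchymal factors Meox1 rose to 15079 ± 215 in overexpressing libraries against 11260 ± 612 in controls (adjusted p = 0.0458), and Osr1 fell to 673 ± 85.5 in overexpressing libraries against 1193 ± 194 in controls (adjusted p = 0.0425). The 20 mesenchymal genes held no call with limma, and 3 had an unadjusted p below 0.05 (15%, beside 20.4% of all genes). SDs in the gain comparison are over 2 overexpressing and 3 control libraries. Of the 17 genes named from these lists as past the threshold, Egr3 kept it without any 1 library and Btg2 missed it only without overexpressing library 2 (adjusted p = 0.0711). The other 15 missed it without overexpressing library 1 (0.0510 to 0.245) and without library 2 (0.0642 to 0.258), and some of them also without control 1, 2 or 3 (13, 5 and 1 genes, up to 0.136, 0.0763 and 0.0626).

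Markers of other cell types moved with some of these comparisons, and their part in the member values was not tested. In uninjured loss, 4 of 8 mural markers fell, and the 8 summed to 9506 to 10889 normalized counts in deleted and 14821 to 16730 in control libraries. Of these, Cspg4 kept its call without any 1 library. Abcc9 missed the threshold without control 2 (adjusted p = 0.0583) or 3 (0.0535), and Kcnj8 and Vtn missed it without deleted library 3 (0.0732 and 0.0654) or control 1 (0.123 and 0.128), 2 (0.181 and 0.169) or 3 (0.135 and 0.169), Kcnj8 also without deleted library 2 (0.0876). The 8 endothelial markers summed to 11991 to 13643 in deleted and 15498 to 15687 in control libraries, and 3 of the 8 were listed at 0 in each deleted library and none in controls, among them Cdh5 in all 3 deleted libraries. Of the 5 endothelial markers tested none passed. Pecam1 lay above control (log2 difference 0.52) and 4 lay below, with a median log2 difference of -0.29.

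Myeloid markers, 11 of 12 listed, summed to 1059 to 1420 normalized counts in uninjured deleted and 865 to 902 in control libraries, and none passed the test. Erythroid markers, 5 of 6 listed, summed to 1029, 201 and 12.7 in uninjured deleted libraries and 23.4 to 31.2 in controls, so that deleted libraries 1 and 2 stood apart. Cardiomyocyte markers, 7 of 8 listed, summed to 504 to 691 in deleted and 669 to 790 in control libraries, and Schwann cell markers, 4 of 6 listed, to 1905 to 2323 in deleted and 1658 to 1737 in control libraries. Aldh1a2, a retinoic acid enzyme and the only mesothelial marker that could be tested, had 11625 ± 3233 in deleted and 6547 ± 1075 in control libraries (SD, n = 3 each, adjusted p = 0.0522).

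In infused loss, erythroid markers separated, with sums of 460 and 151 normalized counts in deleted libraries and 19.3 to 44.9 in controls. Among 4 tested, Hba-a1, an alpha globin gene, passed (102 ± 70.5 in deleted, SD, n = 2, and 4.64 ± 2.04 in control libraries, SD, n = 3, adjusted p = 0.0380). It missed the threshold without deleted library 1 (adjusted p = 0.162) or 2 (0.0934) and without control 1 (0.0591) or 2 (0.162). Endothelial markers, 8 of 8 listed and none at 0, summed to 2743 to 3154 in infused deleted and 3663 to 6646 in infused control libraries. Of the 7 tested, 4 lay above and 3 below control, with a median log2 difference of 0.048. Myeloid markers summed to 494 to 809 in infused deleted and 745 to 864 in infused control libraries. All 9 myeloid markers tested lay below control (median log2 difference -0.49), and none passed. Mural markers summed to 4493 to 5586 in deleted and 4866 to 6456 in control libraries. All 7 mural markers tested lay below control (median -0.18), and none passed. The listed mesothelial markers summed to 10344 to 10655 in deleted and 7103 to 8759 in control libraries, and the 24 immediate early genes to 256350 to 312460 in deleted and 358400 to 556210 in control libraries.

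In the gain comparison, the fibroblast markers summed to 3040500 to 3285400 normalized counts in overexpressing and 4315200 to 4605200 in control libraries, and 1 of 10, Tcf21 itself, passed, in the higher direction. Aldh1a2 rose (15125 ± 2605 in overexpressing, SD, n = 2, and 6546 ± 815 in control libraries, SD, n = 3, adjusted p = 0.00954), and missed the threshold without overexpressing library 2 (adjusted p = 0.0529). Endothelial markers, 8 of 8 listed and none at 0, summed to 5170 to 6395 in overexpressing and 7951 to 11020 in control libraries. Most of this sum was Tek, an angiopoietin receptor, which fell (5315 ± 526 in overexpressing and 9289 ± 1490 in control libraries, limma adjusted p = 0.0297). Of the 8 endothelial markers tested, 4 lay above and 4 below control, with a median log2 difference of 0.067. Cardiomyocyte markers, 8 of 8 listed, summed to 995 to 1014 in overexpressing and 763 to 812 in control libraries. Actc1, cardiac actin, rose (311 ± 35.4 in overexpressing and 130 ± 26.3 in control libraries, limma adjusted p = 0.0315). Of the 7 cardiomyocyte markers tested, Actc1 among them, 3 lay above and 4 below control, with a median log2 difference of -0.17. Without overexpressing library 1, 2 or control 1, Tek (adjusted p = 0.0906, 0.185 and 0.0910) and Actc1 (0.186, 0.135 and 0.0856) missed the threshold.

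Myeloid markers, 12 of 12 listed, summed to 2370 to 4764 normalized counts in overexpressing and 1776 to 2635 in control libraries, with none past the threshold. Of these 12 myeloid markers, 11 lay above and 1 below control, with a median log2 difference of 0.73. Erythroid markers summed to 65.2 and 176 in overexpressing and 15.1 to 63.9 in control libraries, and Schwann cell markers to 1094 to 1152 in overexpressing and 1465 to 1581 in control libraries. The 24 immediate early genes summed to 375240 to 441660 in overexpressing and 597910 to 882150 in control libraries. Lymphoid markers were nearly absent, with at most 1 of 8 listed in any table.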

How the data were processed

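Per the labels' protocols, RNA came from the MiRNeasy micro kit, and SMART-seq V4 chemistry for low input amounts made the cDNA. The submitters' processing notes name kallisto, DESeq2 and GRCm38; their versions, the annotation and the strandedness are not stated. Each deposited number is a signal, a gene's count as normalized by the authors within 1 of 3 tables, as the table names and values show. They are not whole numbers. Low values (0.5 to 6) lay within 0.03 of a whole step in 35.6% to 67.5% of cases, so whole reads could not be recovered and count models were not used. Levels are set across tables only as descriptions.

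Groups came from the labels. In each table, limma 3.58.1 (R 4.3.3) was run on log2(value + 1) for genes averaging 10 or more, using lmFit and eBayes with trend, two-sided p-values and a threshold of 0.05 after Benjamini-Hochberg adjustment over all genes, with the 2 groups of a comparison in a fit and no covariate; the 2 contrasts of effects used 4 groups of 2 tables. Fold changes on this scale understate low genes. Non-overlap means that no library of 1 group reached the range of the other. Paralog ratios were compared by exact permutation over libraries. Lengths for levels per kilobase came from GENCODE vM21, where 82.6% to 84.8% of the tested genes had a symbol match. Likeness used genes averaging 50 or more in every table.

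The members, the lists and the tests were chosen with earlier results of these data known. Named genes were the 6 members, Tcf21, up to 4 genes with the smallest p per list and comparison (2 where none passed) and the 3 genes most like each member; not all are printed. The fits were tested on simulated data. Alternatives varied the pseudocount (0.5 and 5), the filter (none and 50), the scaling, the variance trend, array weights and the replicate block, and left out each library in turn; for marker genes past the threshold this was added after seeing the data.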

Additional observations from a re-analysis of the deposited data

How the results depend on the processing

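Pseudocounts, filters, TMM and quantile scaling left the calls of uninjured Zeb1 and gain Snai1 in place and moved the median of all genes by less than 0.1. Without a variance trend, genes called were 94 in uninjured loss, 72 in infused loss, 25 in gain and 263 in gain minus loss, and the log2 differences of uninjured Zeb1 (-0.38, adjusted p = 0.159) and gain Snai1 (0.90, adjusted p = 0.0656) missed the threshold. With array weights the 3 counts were 949, 308 and 1013, gain Snai2 passed at 0.55 (adjusted p = 0.0379), and infused Prrx1 turned to -0.0085. With the replicate number as a block they were 227, 1490 and 1858. That fit kept only replicate numbers present in both groups, so it left out control 3 in infused loss and in gain. Its log2 differences there are those of 2 against 2 libraries. The same 2 against 2 libraries without the block gave 175 genes called in infused loss and 821 in gain. Without the block they called no member in infused loss and only Snai1 in gain (limma adjusted p = 0.0132). In the fit with the block, uninjured Zeb1 missed at -0.38 (adjusted p = 0.0870). There infused Zeb1 passed at -0.51 (0.0169), infused Zeb2 at -0.47 (0.0221), gain Snai2 at 0.51 (0.0114) and gain Zeb1 at 0.37 (0.0212), and infused Prrx1 turned to -0.048. The correlation of deviations of same-numbered libraries was 0.025, -0.054 and -0.042 in uninjured loss, 0.18 and -0.042 in infused loss and 0.095 and 0.062 in gain. In gain both overexpressing libraries correlated best with their own number, and in both loss comparisons not every library did. In a group of 2 libraries the deviations mirror each other, so this check cannot decide on pairing. The labels state no pairs, and the numbers were not taken as pairs. The contrast of gain minus loss for Snai1 passed at 0.74 (adjusted p = 0.0471) with a filter of 50 and at 0.76 (0.0440) with quantile scaling. The cause of these changes was not tested.

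Leaving out 1 library at a time, genes called ranged over 88 to 891 in uninjured loss, 32 to 175 in infused loss, 124 to 821 in gain, 12 to 57 in infused minus uninjured loss and 155 to 436 in gain minus loss. Members called were 0 to 1 in uninjured loss, in gain and in gain minus loss. Uninjured Zeb1 ranged over -0.42 to -0.33 and gain Snai1 over 0.86 to 0.95. Gain minus loss for Snai1 ranged over 0.58 to 0.91 and passed without infused deleted library 2 (adjusted p = 0.0464). Signs changed for infused Prrx1 (-0.048 to 0.062), infused Snai2 (-0.16 to 0.063), infused Snai1 (-0.010 to 0.32), gain Zeb2 (-0.092 to 0.064), Zeb1 (-0.22 to 0.12) and Zeb2 (-0.28 to 0.013) in infused minus uninjured loss, Prrx2 in gain minus loss (-0.057 to 0.20) and the log2 ratio difference of Zeb2 to Zeb1 in infused loss (-0.058 to 0.32).

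With the longest transcript, control levels per kilobase were 1055 for Zeb1, 800.5 for Zeb2, 325 for Prrx1 and 190 for Prrx2 in uninjured, 651, 391, 233 and 344 in infused Tcf21-MerCreMer and 878, 574 and 254 (Zeb1, Zeb2 and Prrx1) in infused Pdgfra-creERT controls. Read depth behind the deposited values is unknown, so no counting interval was given.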
